A study of Bos indicus and Bos indicus x Bos taurus and Bos taurus with 6 samples.

Results

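The genes described here are the nuclear-encoded genes of respiratory complex I, chosen as every row of the gene count table whose symbol begins with NDUF. There were 47 such genes among 21698. Of these, 39 encode subunits or the NDUFA4 pair, and 8 encode assembly factors (NDUFAF1 to NDUFAF8). They lie on 24 chromosomes in the deposited positions, 2 of them on the X chromosome. Whole-blood RNA was sequenced from cows of 3 breeds, with 2 libraries labelled as biological replicates in each. Kedah-Kelantan is an indigenous tropical Bos indicus breed labelled heat-tolerant, Brangus is a composite of Bos indicus and Bos taurus labelled intermediate, and Holstein Friesian is a temperate Bos taurus breed labelled heat-vulnerable. All 6 libraries share the same condition, heat stress at a Temperature-Humidity Index of 44.68, and no library came from unstressed cows. The cows were adult females, neither pregnant nor lactating, aged 4.5 ± 1.2 years and weighing 450 ± 15 kg, all kept on a single university farm in Malaysia. The series' design text gives 4 animals per breed. How 4 animals became 2 libraries is not stated, so the p-values measure the spread between these libraries only.

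Complex I takes electrons from NADH, passes them along a chain of iron-sulfur clusters to ubiquinone and pumps protons across the inner mitochondrial membrane. Its peripheral arm reaches into the matrix and holds the NADH-oxidising N module and the quinone-reducing Q module, each with a catalytic core. Its membrane arm is built around the ND subunits encoded in mitochondrial DNA, surrounded by accessory subunits, and assembly factors join the pieces without staying in the finished enzyme. In blood, RNA of these genes comes mainly from leukocytes and platelets, since mature red cells hold no mitochondria. In whole-blood RNA, fewer cells of a type and less RNA per cell cannot be told apart.

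The libraries held 25275377 to 28668857 counts. A floor of 3 counts stood at 0.0965 to 0.129 CPM (counts scaled to a common library size), so depth limited only the rarest of these genes. In total, 46 of the 47 genes passed the filter on low counts and were tested among 13455 genes. NDUFA4L2, a paralog of NDUFA4 known from hypoxic cells, had 0 counts in 4 libraries and 2 and 3 counts in the Kedah-Kelantan pair, so it was not tested and no fold is given. The Holstein Friesian libraries stood apart from each other. The median absolute log2 difference between replicates was 0.51 there, 0.13 in Kedah-Kelantan and 0.20 in Brangus. Over the NDUF genes, Holstein Friesian replicate 2 was lower than replicate 1 in 41 of 46 genes, with a median log2 difference of -0.44 where the median of all genes was 0. The same difference was 0.14 in Kedah-Kelantan (34 genes higher in replicate 2) and -0.03 in Brangus (22 higher). The markers of blood cell types moved between the Holstein Friesian libraries as well. From replicate 1 to replicate 2, the summed CPM of 8 neutrophil markers was 587 and 5530, that of 6 monocyte markers 88.6 and 1840, and that of 8 B and plasma cell markers 2700 and 165. T cell markers were present at similar levels in all 6 libraries (summed CPM 1360 to 1780). The part of these cells in the NDUF levels was not tested.

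Per gene length, the NDUF genes spanned a wide range of levels in the deposited FPKM (fragments scaled by gene length and library total). NDUFA4, now counted with cytochrome c oxidase (complex IV), had the highest mean over the 6 libraries at 180 FPKM. It was 138 and 177 FPKM for Kedah-Kelantan, with Brangus at 218 and 246 and Holstein Friesian at 199 and 101, so only the Holstein Friesian range reached below the Kedah-Kelantan one. NDUFS5 and NDUFB10, both membrane arm subunits, followed at 167 and 148 FPKM. The membrane arm accessory subunits had a median of 66.6 FPKM, from 34.4 for NDUFA11 to 167 for NDUFS5. Peripheral arm accessory subunits had a median of 47.4 FPKM, from 7.69 for NDUFA5 to 99.5 for NDUFA2. Of the catalytic cores, NDUFS3 stood at 26.0 FPKM and NDUFS7 at 39.0 in the Q module, and the N module ran from 24.3 for NDUFS1 to 30.1 for NDUFV1. The acyl carrier protein NDUFAB1, which also serves mitochondrial fatty acid synthesis, stood at 51.4 FPKM. Assembly factors were the lowest group, with a median of 6.58 FPKM, from 0.79 for NDUFAF2, a factor of late assembly, to 25.3 for NDUFAF3, which acts with NDUFAF4 on the Q module.

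**Figure D1:**
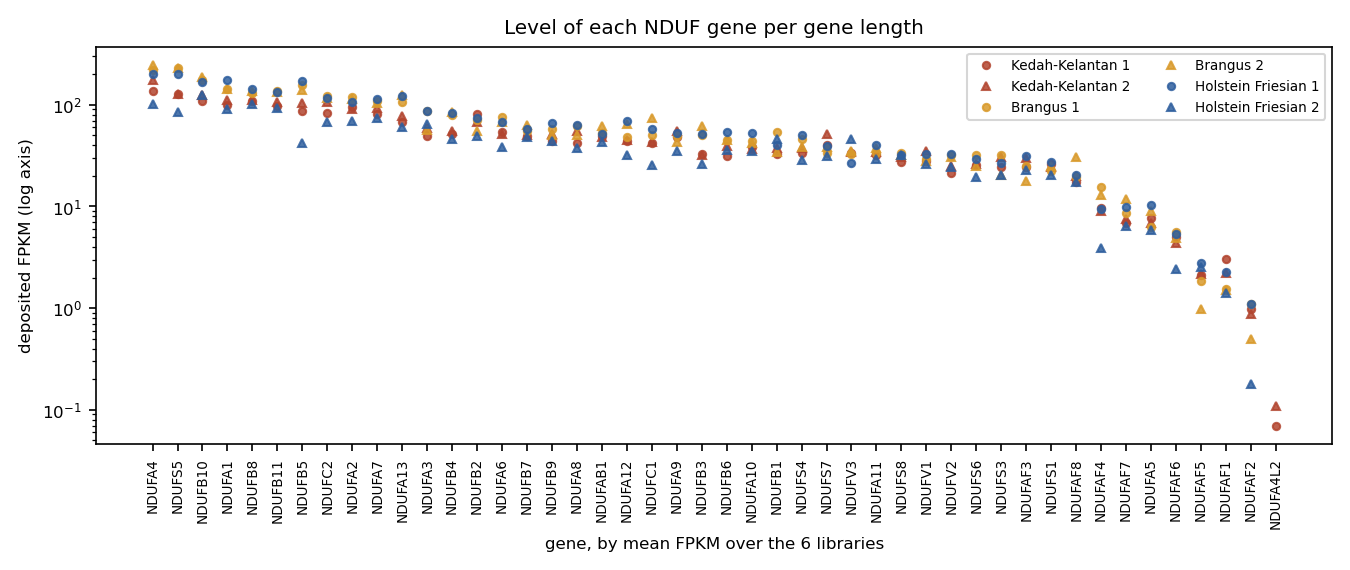
Deposited FPKM (vertical, log axis) of 46 NDUF genes (horizontal, ordered by the mean over 6 libraries), with 1 point per library, coloured by breed and shaped by replicate; values of 0 are not drawn. Levels run from 180 FPKM for NDUFA4 to 0.79 for NDUFAF2 as means, and NDUFA4L2, drawn in Kedah-Kelantan alone, follows last at 0.03.

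The same libraries tended to be high or low across these genes. Brangus replicates 1 and 2 were each the highest library for 18 of the 46 genes, and both stood above the other 4 libraries in 19 genes. Kedah-Kelantan replicate 1 and Holstein Friesian replicate 2 were each the lowest for 20 genes, and both Kedah-Kelantan libraries stood below the other 4 in 15. The share of all genes in such an order was not computed, so these counts have no background. Between Kedah-Kelantan and Brangus alone, 64.2% of all genes tested did not overlap. Holstein Friesian replicate 1 reached the Brangus range or exceeded it in 26 genes, while replicate 2 fell within the Kedah-Kelantan range or below it in 29. The ratio of the highest to the lowest library had a median of 1.82, from 1.25 for NDUFS1 to 6.26 for NDUFAF2. Summed over the NDUF genes, the CPM reached 1598 and 1763 for Kedah-Kelantan, with Brangus at 2467 and 2482 and Holstein Friesian at 2272 and 1639.

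**Figure D2:**
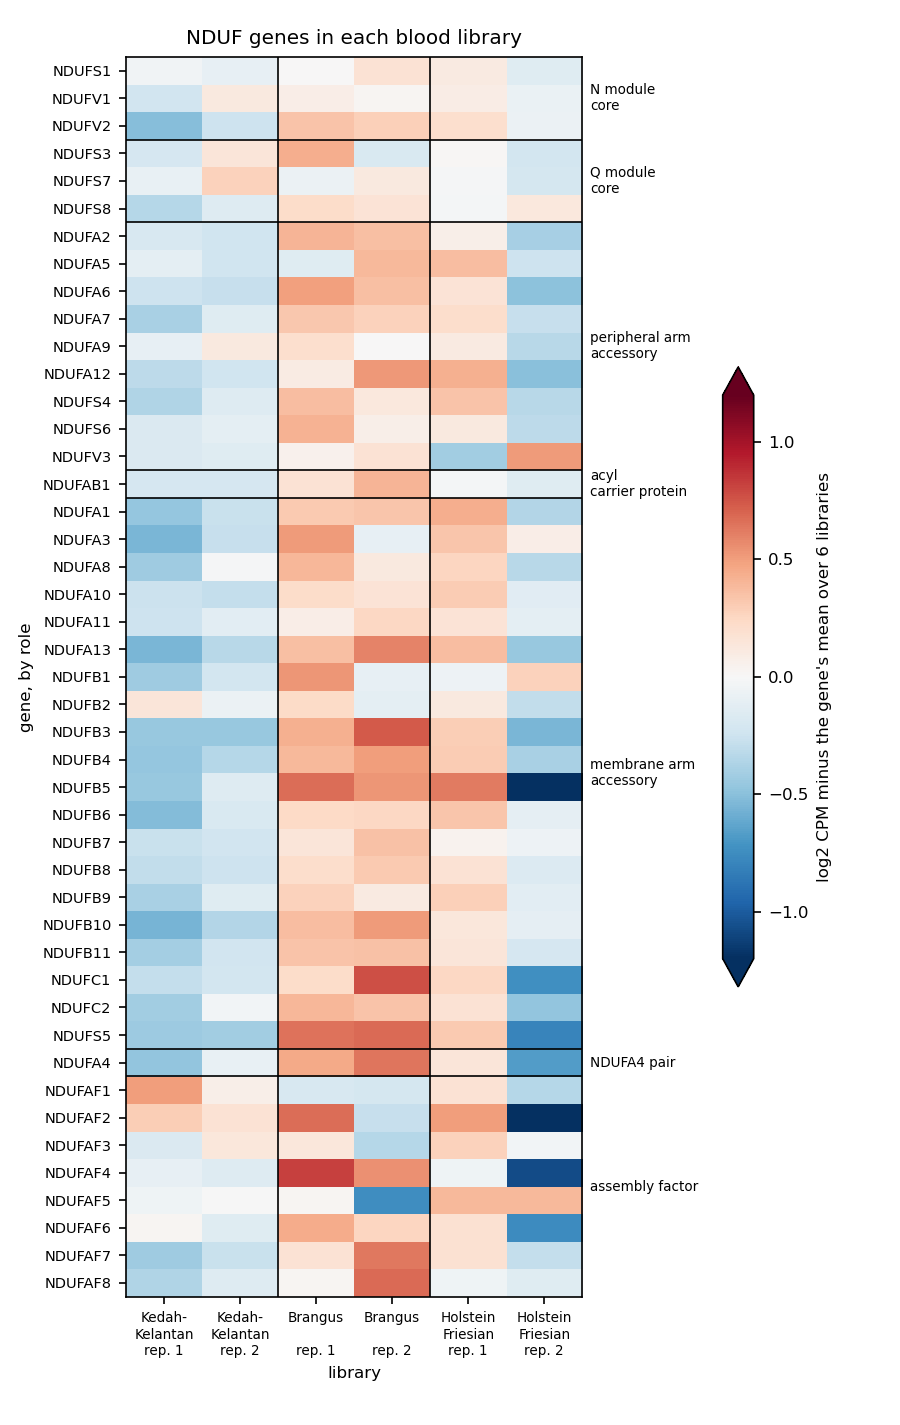
log2 CPM of 45 tested NDUF genes (rows, by role) in each library (columns), relative to the gene's mean over the 6 libraries; red is above and blue below that mean, and the colour scale ends at -1.2 and 1.2. Most rows are blue in both Kedah-Kelantan libraries, red in both Brangus libraries, red in Holstein Friesian replicate 1 and blue in replicate 2.

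Between Kedah-Kelantan and Brangus, 42 of the 46 NDUF genes were lower in Kedah-Kelantan and 4 were higher, but 21 were lower and 25 higher once a trend on gene length was removed. That trend is a smooth curve of each library's level on gene length over all genes, and the step was chosen after seeing the data. On the log2 FPKM scale 36 were lower and 10 higher, where the median of all genes was itself shifted to 0.28. From the counts, the median log2 fold change was -0.52, against 0.02 over all genes tested, and it became 0.04 with the length trend removed. In 36 genes both Kedah-Kelantan libraries lay below both Brangus libraries, and in 1 gene, NDUFAF1, both lay above. Over all genes tested, 30.7% were lower and 33.5% higher without overlap (64.2%), so separation itself was common in this pair. No NDUF gene passed edgeR's quasi-likelihood test (Benjamini-Hochberg adjusted p under 0.05), and neither did any other gene (0%). At an unadjusted p under 0.05, 17 NDUF genes were lower and 0 higher, beside 6.09% lower and 5.54% higher of all genes. Leaving out each library in turn kept the NDUF median between -0.6 and -0.49. Such a fit leaves 1 library in a breed, so its p-values are not counted here. By the same unadjusted threshold 1 was lower and 3 were higher with the length trend removed, and limma on log2 FPKM gave 1 lower. DESeq2 called 3 of them lower, NDUFB10 and NDUFV2 among them, beside 2.74% of all genes lower and 2.19% higher (4.93%).

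The spread used in that fit came from all 6 libraries. When only the Kedah-Kelantan and Brangus libraries were fitted, 19 of 46 NDUF genes (41.3%) passed, all lower in Kedah-Kelantan, beside 18.7% of all genes in either direction and 9.84% lower. Among them were 12 membrane arm subunits (NDUFA1, NDUFA10, NDUFA13, NDUFB3, NDUFB4, NDUFB5, NDUFB8, NDUFB10, NDUFB11, NDUFC1, NDUFC2 and NDUFS5), the peripheral arm subunits NDUFA2, NDUFA6 and NDUFA7, the core subunit NDUFV2, NDUFA4, and the assembly factor NDUFAF4. Leaving out a single Holstein Friesian library gave no separate check, since the spread then also came from the Kedah-Kelantan and Brangus libraries alone. In the fit of these breeds alone with the gene length trend removed as well, 3 NDUF genes passed beside 12.6% of all genes. NDUFB5 and NDUFV2 were lower, as without that step, and NDUFS7 was higher.

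Of the N module core, NDUFV2, which carries an iron-sulfur cluster beside the NADH site (chromosome 24, 41415091 to 41433991), had the largest difference. Its levels were 39.2 and 47.0 CPM for Kedah-Kelantan, with Brangus at 71.4 and 68.6 and Holstein Friesian at 64.7 and 53.3. The 3 breeds did not overlap, with Holstein Friesian in the middle. The log2 fold change of Kedah-Kelantan against Brangus was -0.70 (SE 0.19, edgeR adjusted p = 0.356, DESeq2 adjusted p = 0.0427). It was -0.62 with the length trend removed. NDUFS1, the largest core subunit, was 97.0 ± 3.12 CPM (SD, n = 2) in Kedah-Kelantan and 109 ± 8.93 in Brangus, which is -0.16 on the log2 scale (SE 0.17). NDUFV1, which binds NADH and flavin, was -0.10 (SE 0.19) with overlapping libraries.

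In the Q module core, NDUFS8, a carrier of iron-sulfur clusters, was 26.3 and 30.0 CPM for Kedah-Kelantan, with Brangus at 39.2 and 37.7 and Holstein Friesian at 33.0 and 36.6. The 3 breeds did not overlap, and the log2 fold change of Kedah-Kelantan against Brangus was -0.45 (SE 0.18, edgeR adjusted p = 0.427), or -0.07 with the length trend removed. NDUFS7, which holds the cluster next to the quinone, was 26.5 and 34.4 CPM for Kedah-Kelantan against 26.9 and 30.6 for Brangus. Its breeds overlapped, and its log2 fold change was 0.08 (SE 0.22), but 0.65 (SE 0.18) with the trend removed. NDUFS3 was -0.18 (SE 0.28) with overlapping libraries.

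All 9 accessory subunits of the peripheral arm had log2 fold changes below 0 (median -0.51), though 5 of the 9 were above 0 with the length trend removed. Both Kedah-Kelantan libraries lay below both Brangus libraries in 7 of the 9, beside 30.7% of all genes (64.2% without overlap in either direction). NDUFA2, a thioredoxin-fold subunit of the N module, was 47.5 and 45.8 CPM for Kedah-Kelantan, with Brangus at 72.1 and 69.8 and Holstein Friesian at 56.9 and 41.0. Kedah-Kelantan and Brangus were far apart relative to their replicates, with Holstein Friesian spread across the Kedah-Kelantan values. The log2 fold change was -0.60 (SE 0.21, edgeR adjusted p = 0.391), and 0.12 with the trend removed. NDUFA6, which binds the acyl carrier protein, was -0.70 (SE 0.27) and 0.11 with the trend removed. NDUFAB1 itself was 29.6 ± 0.0463 CPM (SD, n = 2) in Kedah-Kelantan and 41.9 ± 4.80 in Brangus, a log2 fold change of -0.50 (SE 0.18), and 0.13 with the trend removed.

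The median of the membrane arm accessory subunits was -0.63, or 0.05 with the length trend removed. All 20 were below 0, and 12 of the 20 were above 0 with that trend removed. In 19 of the 20 both Kedah-Kelantan libraries lay below both Brangus libraries, beside 30.7% of all genes (64.2% without overlap in either direction). The exception was NDUFB2, at -0.03 (SE 0.24). In the fit of these 2 breeds alone, 12 of the 20 passed, all lower, beside 9.84% of all genes lower (18.7% in either direction). NDUFB10, a subunit on the intermembrane-space side (chromosome 25, 1516661 to 1519322), had the smallest p of all NDUF genes. It was 71.7 and 82.9 CPM for Kedah-Kelantan, with Brangus at 137 and 151 and Holstein Friesian at 116 and 98.0. No breed overlapped another. The log2 fold change was -0.90 (SE 0.18, edgeR adjusted p = 0.353, DESeq2 adjusted p = 0.00177), and -0.32 with the trend removed. NDUFS5, also facing the intermembrane space (chromosome 3, 106970601 to 106976098), was 55.5 and 56.5 CPM for Kedah-Kelantan, with Brangus at 119 and 121 and Holstein Friesian at 93.8 and 43.3. Its replicates were nearly equal in the first 2 breeds and differed by a log2 of 1.10 in Holstein Friesian. The log2 fold change of -1.10 (SE 0.37) was the lowest of all NDUF genes, and it had an adjusted p of 0.000889 in edgeR's fit of these 2 breeds alone. With the trend removed it was -0.30, and in the 2-breed fit its adjusted p from edgeR was then 0.133. NDUFB11, an X-linked subunit, was -0.67 (SE 0.19), and 0.01 with the trend removed. Among the others, and chosen after its values were seen, NDUFB3 was 26.3 and 26.4 CPM for Kedah-Kelantan, with Brangus at 48.9 and 60.9 and Holstein Friesian at 44.8 and 24.7, so its Holstein Friesian libraries again fell on either side of the Kedah-Kelantan ones.

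NDUFA4 was 71.2 and 93 CPM for Kedah-Kelantan, with Brangus at 136 and 155 and Holstein Friesian at 110 and 62.2. Kedah-Kelantan lay below Brangus in every library, and Holstein Friesian ran from below the former to between the pair. The log2 fold change of Kedah-Kelantan against Brangus was -0.82 (SE 0.32), and -0.13 with the length trend removed.

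The assembly factors were mixed, with 5 of 8 below 0, a median of -0.24 and, with the trend removed, 4 of 8 below 0 and a median of 0.01. NDUFAF7, a methyltransferase of the matrix, was 10.1 and 11.3 CPM for Kedah-Kelantan, with Brangus at 15.5 and 21.5 and Holstein Friesian at 15.6 and 11.2. Kedah-Kelantan did not overlap Brangus, and the log2 fold change was -0.78 (SE 0.30), or -0.61 with the trend removed. NDUFAF8, a partner of NDUFAF5, was -0.68 (SE 0.33), and 0.13 with the trend removed. NDUFAF1, which helps to build the membrane arm, was 30.2 and 22.3 CPM for Kedah-Kelantan, with Brangus at 18.5 and 18.3 and Holstein Friesian at 23.9 and 16.6. It was the single NDUF gene with both Kedah-Kelantan libraries above both Brangus ones, at 0.51 (SE 0.28), or 0.29 with the trend removed.

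**Figure D3:**
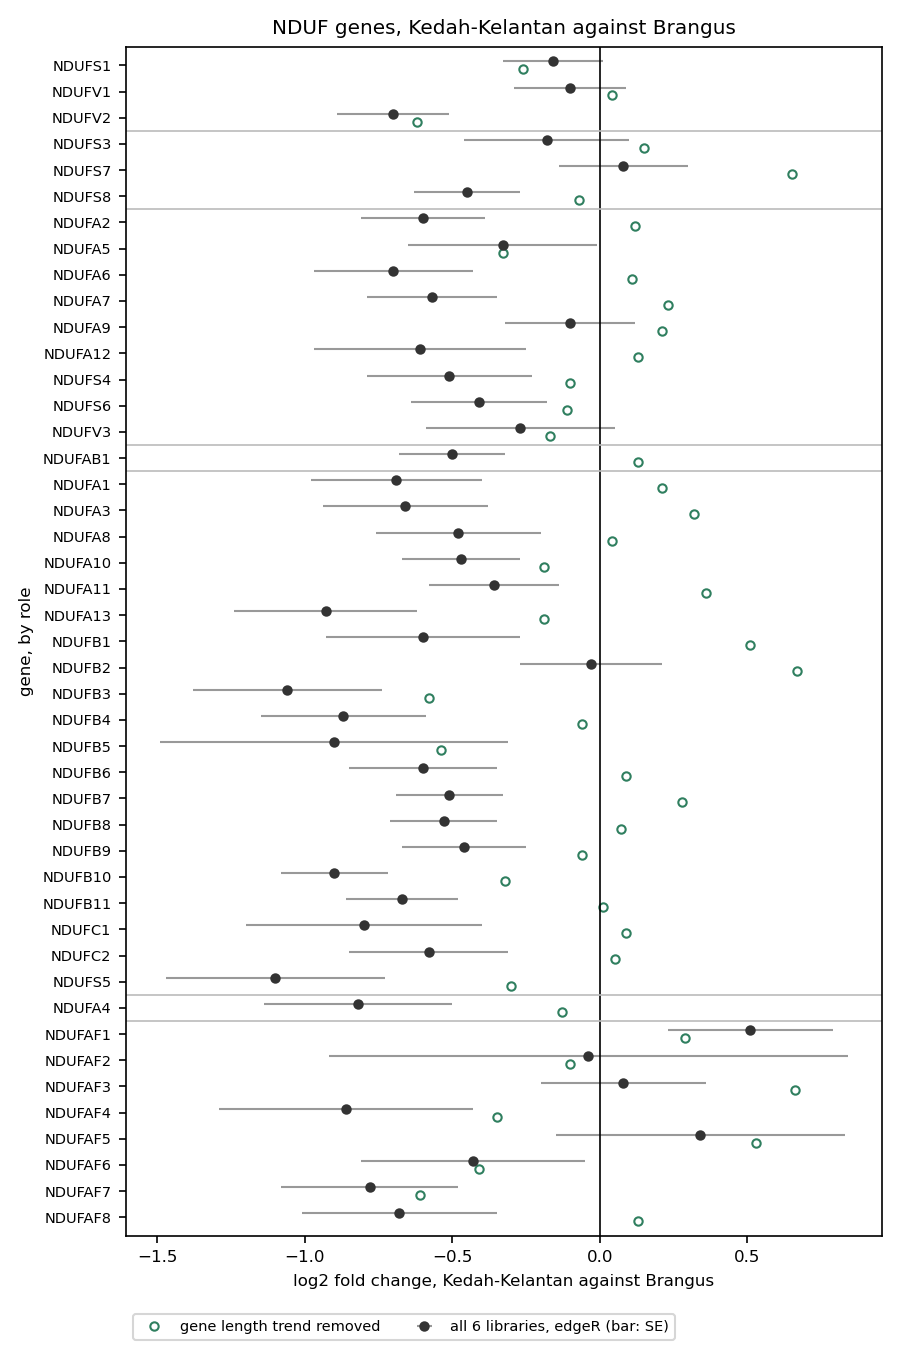
log2 fold change of Kedah-Kelantan against Brangus (horizontal) for 45 tested NDUF genes (vertical, by role, grey lines between roles); filled points with bars are edgeR's value ± SE from all 6 libraries, and open points are the values with the gene length trend removed. Of the filled points 41 of 45 lie below 0, and of the open points 20 of 45.

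The blood cell markers also differed between these breeds. The summed CPM of the platelet markers was 222 and 259 in Kedah-Kelantan and 1000 and 1040 in Brangus, and 4 of the 5 tested markers were below 0. For erythroid markers it was 147 and 184 against 445 and 641, almost all of it HBB, while HBA1 was at 0 in all 6 libraries. For B and plasma cell markers it was 1660 and 1810 against 2770 and 2410, with 7 of 8 below 0. The NK and cytotoxic markers ran the other way, 571 and 651 against 228 and 296, with 7 of 7 above 0. Eosinophil, basophil and mast cell markers were at 266 and 278 against 46.8 and 42.4, with 4 of 6 above 0. The monocyte markers were at 355 and 382 against 217 and 316 (5 of 6 above 0), and the neutrophil markers at 1560 and 1690 against 2010 and 3120 (6 of 7 below 0). Their part in the NDUF differences was not tested.

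Between Kedah-Kelantan and Holstein Friesian, 38 of the 46 NDUF genes were lower in Kedah-Kelantan and 8 higher, but 26 and 20 with the length trend removed. On the log2 FPKM scale 27 were lower and 19 higher, where the median of all genes was itself shifted to 0.18. From the counts, the median log2 fold change was -0.26 beside -0.03 for all genes, and -0.03 with the length trend removed. None passed edgeR's test, where 1 of all genes did (0.00743%), and DESeq2 called 0 of them, beside 0.985% of all genes (0.493% in each direction). At an unadjusted p under 0.05 there was 1, NDUFB10 (-0.47 on the log2 scale, SE 0.18, edgeR adjusted p = 0.995), beside 4.04% of all genes (1.84% lower and 2.2% higher). Both Kedah-Kelantan libraries lay below both Holstein Friesian libraries in 16 NDUF genes, and above in 0, beside 12.6% and 18.1% of all genes. Of these 16, 10 encode membrane arm subunits, among them NDUFA3, at 14.6 and 17.7 CPM against 27.4 and 22.9 (-0.64, SE 0.28).

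This comparison turned on which Holstein Friesian library was used. Without Holstein Friesian replicate 1 the median was 0.03, with 26 of 46 genes above 0, and 2 genes passed edgeR's test, beside 18.2% of all genes. Those were NDUFB5, higher in Kedah-Kelantan, and NDUFV3, lower. Without Holstein Friesian replicate 2 the median was -0.47, and 9 passed, all lower, beside 5.52% of all genes lower and 6.76% higher. NDUFV2 (-0.45, SE 0.19) and NDUFS8 (-0.31, SE 0.18) stayed below 0 with either library left out. NDUFS1, NDUFA4, NDUFA7 and NDUFS4 turned above 0 without replicate 1. NDUFAF1 was above 0 at 0.38 (SE 0.28), and its Holstein Friesian libraries overlapped those of Kedah-Kelantan.

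Between Brangus and Holstein Friesian, 42 of the 46 NDUF genes were higher in Brangus and 4 lower, but 21 and 25 with the length trend removed. The median log2 fold change was 0.26 beside -0.03 for all genes, and -0.04 with the length trend removed. None passed edgeR's test, where 1 of all genes did (0.00743%), and DESeq2 called 0 of them, beside 2.28% of all genes (1.09% higher and 1.20% lower). Unadjusted p under 0.05 was reached by 2, beside 7.62% of all genes (3.98% higher and 3.64% lower). They were NDUFA2 (0.53, SE 0.21) and NDUFAF4, an assembly factor of the Q module. NDUFA2 was 0.05 with the length trend removed, 0.79 without Holstein Friesian replicate 1 and 0.28 without replicate 2. NDUFAF4 was 14.2 and 11.7 CPM in Brangus, 7.52 and 3.46 in Holstein Friesian, and 7.27 and 6.99 in Kedah-Kelantan. Brangus lay above every other library, and its 1.24 on the log2 scale (SE 0.44, edgeR adjusted p = 0.647) was the highest among the NDUF genes. It was 0.95 with the length trend removed, 1.90 without Holstein Friesian replicate 1 and 0.75 without replicate 2. In 19 genes both Brangus libraries were above both Holstein Friesian libraries, beside 18.4% of all genes. In 1 gene, NDUFAF5, which hydroxylates NDUFS7, both were below, beside 15.9% of all genes, at 3.21 and 1.68 CPM against 4.30 and 4.30 (-0.81, SE 0.49). That value was -1.39 without Brangus replicate 1 and -0.46 without Brangus replicate 2.

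All 20 membrane arm subunits were above 0 in Brangus against Holstein Friesian (median 0.27), but 7 of 20 with the length trend removed. Of the peripheral arm accessory subunits 8 of 9 were above 0 (median 0.29), against 5 of 9 with that trend removed. Without Holstein Friesian replicate 1 the median over the NDUF genes was 0.50 and 17 genes passed edgeR's test, all higher in Brangus, beside 15.5% of all genes higher (32.9% in either direction). Without replicate 2 it was 0.07, and 0 passed, beside 6.05% of all genes (4.42% higher and 1.63% lower). A test of any difference among the 3 breeds called 0 of the 46 genes (smallest edgeR adjusted p = 0.566; 0% of all genes), and 5 at an unadjusted p under 0.05, beside 8.23%. DESeq2 called 2 in that test, beside 4.65%. The comparisons share libraries, so their values for a gene are not independent of each other.

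Some genes varied widely between the 2 Holstein Friesian libraries. NDUFB5, a membrane arm subunit (chromosome 1, 87503554 to 87518661), was 184 and 50.4 CPM in Holstein Friesian, 86.9 and 107 in Kedah-Kelantan, and 190 and 172 in Brangus. Holstein Friesian thus held a value near the Brangus pair and the lowest value of all 6. Its replicate difference of -1.86 (log2) was the largest of the NDUF genes there, next to -1.85 for the rare NDUFAF2, at 3.76 and 0.684 CPM. NDUFV3, an accessory subunit of the N module known for tissue-specific isoforms, ran the opposite way, and it was picked for this after its values were seen. It was 49.6 and 95.0 CPM in Holstein Friesian (a log2 difference of 0.93), 58.6 and 60.1 in Kedah-Kelantan, and 68.8 and 74.7 in Brangus. Its lowest and highest libraries were thus both Holstein Friesian. NDUFAF1 had the largest replicate difference in Kedah-Kelantan (-0.43), and NDUFAF2 in Brangus (-0.95).

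Gene length moved with these differences. The tested NDUF genes had a median length of 730 bp in the annotation used for FPKM, against 3260 bp for all genes tested, and 60.9% of them were under 1000 bp, against 7.54%. In each library, the smooth trend of all genes at 730 bp, relative to the mean of the 6 libraries, was close to the median level of the NDUF genes. In Kedah-Kelantan the trend was -0.34 and -0.15 and the NDUF median -0.29 and -0.16. In Brangus they were 0.30 and 0.36 against 0.29 and 0.27, and in Holstein Friesian 0.13 and -0.27 against 0.18 and -0.26. In all 6 libraries the NDUF median thus lay on the same side of 0 as the trend. Among all 1014 genes under 1000 bp, the median log2 fold change of Kedah-Kelantan against Brangus was -0.52 and 79.2% were below 0. The 28 NDUF genes of that length had a median of -0.61, with 26 below 0. Among the 18 NDUF genes of 1000 bp or longer the median was -0.37, with 16 below 0. All genes of 1000 bp or longer had a median of 0.05, but that set is not of like length. Of 10 equal groups of all genes by length, the longest had a median length of 13998 bp. The groups with median lengths of 1414 and 1883 bp had median log2 fold changes of -0.23 and -0.12. In the comparisons with Holstein Friesian the longer NDUF genes also kept the direction of the shorter ones. For Kedah-Kelantan against Holstein Friesian the medians were -0.25 in the shorter and -0.28 in the longer genes (13 of 18 below 0), and for Brangus against Holstein Friesian 0.34 and 0.17 (15 of 18 above 0). All genes in the groups at 1414 and 1883 bp had medians of -0.13 and -0.08 in the former comparison. In the latter they had 0.11 and 0.02. Across the 46 genes, Pearson's r of the log2 fold change with log2 length was 0.56 for Kedah-Kelantan against Brangus (Spearman's rho 0.54), 0.43 (0.30) for Kedah-Kelantan against Holstein Friesian and -0.28 (-0.30) for Brangus against Holstein Friesian. Without NDUFAF1, the longest at 11007 bp, r was 0.44, 0.32 and -0.21. These genes are not independent and share the 6 libraries, so no p is given. What made length and level move together was not tested.

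**Figure D4:**
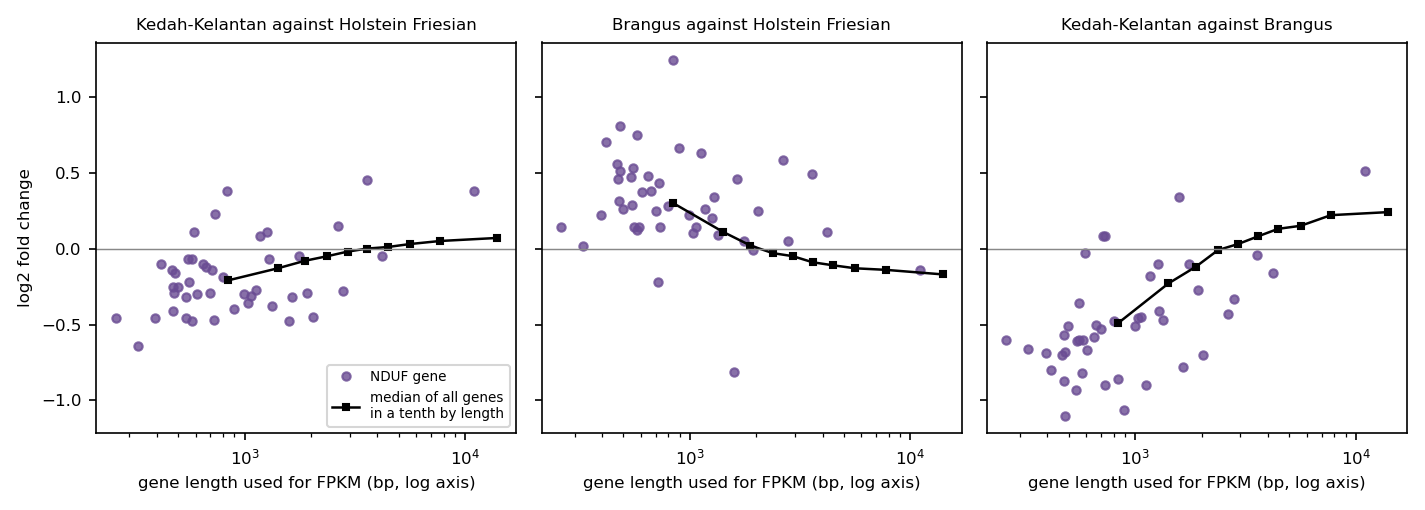
log2 fold change (vertical) against gene length in bp (horizontal, log axis) in the 3 comparisons; purple points are 45 tested NDUF genes and the black line joins the medians of all genes tested in 10 equal groups by length. Most NDUF genes sit at the short end, below 0 in both Kedah-Kelantan panels and above 0 for Brangus against Holstein Friesian, on the same side as the line at that length.

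The other genes of complex I were compared with the same fit. The 7 mitochondrially encoded ND genes, core subunits of the membrane arm, were all below 0 in Kedah-Kelantan against Brangus (median -0.65), but 4 of 7 with the length trend removed (median -0.09). None passed edgeR's test, 2 had an unadjusted p under 0.05, DESeq2 called 2 (ND1 and ND3), and 6 of 7 did not overlap, beside 6.09%, 2.74% and 30.7% of all genes lower by the same rules. In edgeR's fit of the 2 breeds alone 4 of the 7 passed, beside 9.84% of all genes lower. ND1, next to the quinone site, was 1910 and 2140 CPM for Kedah-Kelantan, with Brangus at 2890 and 3640 and Holstein Friesian at 1630 and 1690. Brangus lay above the rest, and here Holstein Friesian rather than Kedah-Kelantan was lowest. ND3 was 552 and 651 CPM, 1210 and 1610, and 692 and 427 in the same order of breeds. Its log2 fold change was -1.23 (SE 0.31) for Kedah-Kelantan against Brangus. ND3 is short (346 bp), and its own value with the length trend removed is not given here. In Brangus against Holstein Friesian all 7 were above 0 (median 0.68; 5 of 7 and 0.52 with the trend removed), 5 had an unadjusted p under 0.05, and DESeq2 called 3, beside 3.98% and 1.09% of all genes higher. With edgeR 0 passed. Dropping Holstein Friesian replicate 1 moved the ND value of 0.68 to 0.95, with all 7 above 0. Dropping replicate 2 instead moved it to 0.63, with 6 of 7 above 0. Each of these fits holds 1 Holstein Friesian library, so only their fold changes are given. In Kedah-Kelantan against Holstein Friesian 5 of 7 were above 0 (median 0.29), and 7 of 7 (median 0.41) with the trend removed, or 4 of 7 without Holstein Friesian replicate 2. There the nuclear-encoded NDUF genes had a median of -0.26 and -0.03.

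The 13 assembly factors without an NDUF symbol had a median near 0 for Kedah-Kelantan against Brangus (-0.04; 0.01 with the length trend removed). COA1 was the one that DESeq2 called, beside 2.74% of all genes lower and 2.19% higher. It was 23.7 and 27.6 CPM against 38.6 and 43.6 (-0.68 on the log2 scale, SE 0.18, DESeq2 adjusted p = 0.0329). TMEM126B, a membrane arm assembly factor, was the lowest of the 13 at -1.23 (SE 0.47, edgeR adjusted p = 0.421). It is short (869 bp), and its own value with the length trend removed is not given here. FOXRED1 was the highest of the 13 at 0.63 (SE 0.27). The medians of these 13 were 0.10 in Kedah-Kelantan against Holstein Friesian and 0.35 in Brangus against Holstein Friesian (0.19 and 0.12 with the length trend removed), turning to -0.17 and -0.08 without Holstein Friesian replicate 2. Of 9 regulators of mitochondrial genes, 8 were tested and none passed in the fit of all 6 libraries with edgeR or DESeq2, where no unadjusted p was under 0.05. Their median log2 fold change against Holstein Friesian was 0.02 in Kedah-Kelantan and 0.08 in Brangus. Without Holstein Friesian replicate 1 it was 0.24 and 0.19, and without replicate 2 it was 0.04 and -0.02. NRF1, a transcription factor of respiratory genes, was 54.4 and 51.6 CPM for Kedah-Kelantan, with Brangus at 53.1 and 48.5 and Holstein Friesian at 44.5 and 37.0. PPARGC1A, a coactivator of mitochondrial biogenesis, had 0 counts in every library.

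**Figure D5:**
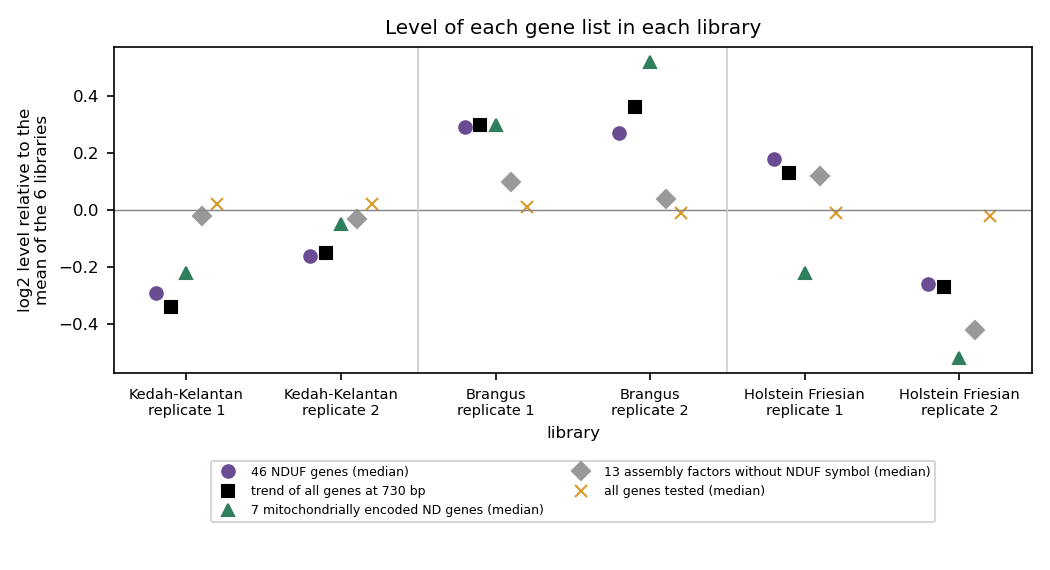
Level in each library (vertical, log2 relative to the mean of the 6 libraries) as the median of the 46 NDUF genes, the 7 ND genes, the 13 other assembly factors and all genes tested, with the trend of all genes at 730 bp as black squares. The NDUF median lies at -0.29 and -0.16 for Kedah-Kelantan, with Brangus at 0.29 and 0.27 and Holstein Friesian at 0.18 and -0.26, beside the black square each time.

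The table also held 8 rows under LOC symbols, of which 2 were tested. Their descriptions in the deposited data name a subunit or assembly factor of NADH dehydrogenase, and they are called copies here. LOC101906178, described as NDUFA12 (chromosome 3, 94815362 to 94815919, against chromosome 5, 24684180 to 24710988 for NDUFA12), was 2.28 and 2.14 CPM for Kedah-Kelantan, with Brangus at 7.02 and 7.95 and Holstein Friesian at 3.02 and 1.67. Brangus stood above the other 4 libraries, with log2 fold changes of -1.75 (SE 0.46, DESeq2 adjusted p = 0.00725) for Kedah-Kelantan against Brangus and 1.67 (SE 0.46) for Brangus against Holstein Friesian. This copy is short (558 bp), and its values with the length trend removed are not given here. NDUFA12, a peripheral arm subunit, was 21.5 and 22.7, 28.7 and 38.6, and 36.3 and 18.8 CPM. How reads were shared between such copies is not given in the sources used here, so both values are uncertain to that extent. With the copies added to their parent genes no count of NDUF calls changed. Those edgeR counts were already 0 in each comparison, so this does not settle how reads were shared.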

How the data were processed

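Whole-blood RNA-seq of 6 libraries, grouped by the breed in their labels, was analysed. The authors deposited a table of raw counts (whole numbers) and a table of FPKM. Per the submitters' processing notes, FastQC 0.11.9, Trimmomatic 0.39, HISAT2 2.2.1, featureCounts 2.0.1, DESeq2 1.38.0 and the build ARS-UCD 1.2 were used, whose roles are not named; strandedness is not given in the sources used here. Deposited FPKM values equal the counts over a fixed length and the library total (deviation up to 0.0412% in 2466 genes) and so add no depth. Gene positions are the authors' own. All 47 NDUF symbols were in the RefSeq gene table, and 99.8% of 16311 shared symbols had the same chromosome name.

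Counts were fitted with edgeR 4.0.16 (R 4.3.3; filterByExpr, TMM, robust quasi-likelihood F test, breed only, all 6 libraries) and adjusted by Benjamini-Hochberg over 13455 genes, with calls at an adjusted p under 0.05. CPM use TMM-adjusted library sizes, and log2 levels add 0.5 CPM. SE is the log2 fold change over the root of F. The common biological coefficient of variation was 0.431. Alternatives were DESeq2 1.42.0, its size factors, no filter, only the breeds compared, a replicate block, limma 3.58.1 on log2(FPKM + 0.1), haemoglobin genes removed, copies merged, and each library left out. A fit without a library leaves a breed with no spread of its own, so its fold changes are given and its calls decide nothing. Removing a smooth trend on gene length was added after seeing the data. The scripts were tested on simulated data.

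The NDUF genes and the lists were chosen with earlier results of these data known. In each comparison the text names called genes, the 2 of smallest p per role, and up to 3 without overlap. It also names the highest and lowest per role in FPKM, and the largest replicate difference per breed. Other genes were named after their values were seen. Sequences were not used here. A gene of the list is counted in the totals but not reported here by itself.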

Additional observations from a re-analysis of the deposited data

How the results depend on the processing

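Removing the gene length trend turned the NDUF median or brought it near 0 in all 3 comparisons. Leaving out a Holstein Friesian library turned it in Kedah-Kelantan against Holstein Friesian, and changed its size but not its sign in Brangus against Holstein Friesian. Depth limited only NDUFA4L2, and 2 libraries per breed limited every test. Values are ordered as Kedah-Kelantan against Holstein Friesian, then Brangus against Holstein Friesian, then Kedah-Kelantan against Brangus. The medians were -0.26, 0.26 and -0.52. With the length trend removed they were -0.03, -0.04 and 0.04, and with only the 2 breeds fitted as well -0.04, -0.04 and 0.05. limma on log2 FPKM gave -0.05, 0.17 and -0.26, where the median of all genes was 0.18, -0.09 and 0.28. Leaving out each library gave -0.47 to 0.03, 0.07 to 0.50 and -0.60 to -0.49. NDUF calls were 0 in each, with 0 to 9, 0 to 17 and 0 to 19 on leaving out each library, and 0 to 23 for any breed difference. The fits with a library left out hold 1 library in a breed, so these ranges of calls decide nothing. Over all genes, too, calls for any breed difference rose when either Holstein Friesian library was left out. DESeq2 called 0, 0 and 3 (2 for any breed difference). The fit of 2 breeds gave 19 in the last comparison, and 3 with the length trend removed too. Calls over all genes were 1, 1 and 0. They were 130, 307 and 663 by DESeq2, 0, 0 and 2515 with 2 breeds, 0, 0 and 1699 with the length trend removed too, 0, 0 and 0 with that trend removed alone, 0 for Brangus against Holstein Friesian with DESeq2 size factors, and 0 to 2455, 0 to 4424 and 0 to 2472 on leaving out each library.

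Of 36 results for genes that the naming rule picks, 22 kept their sign in every setting. In Kedah-Kelantan against Holstein Friesian, limma on log2 FPKM gave NDUFAB1 0.04, NDUFS1 0.11 and NDUFA4 0.14. With the length trend removed NDUFAB1 was 0.07, NDUFA4 0.19 and NDUFA7 0.01, and with 2 breeds as well NDUFAB1 0.06 and NDUFA4 0.17. Leaving out each library gave NDUFA4 -0.46 to 0.40, NDUFS1 -0.22 to 0.08, NDUFA7 -0.52 to 0.01 and NDUFS4 -0.64 to 0.08. In Brangus against Holstein Friesian, NDUFAB1 was -0.06 with the length trend removed, and -0.06 with 2 breeds as well. Leaving out each library gave NDUFS3 -0.11 to 0.50 and NDUFS1 -0.05 to 0.24. In Kedah-Kelantan against Brangus, limma on log2 FPKM gave NDUFS1 0.10. With the length trend removed NDUFAB1 was 0.13, NDUFAF8 0.13, NDUFB11 0.01, NDUFA2 0.12 and NDUFA6 0.11, and with 2 breeds as well 0.14, 0.13, 0.02, 0.13 and 0.12. Beyond these constructions, the cause was not tested.

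The labels do not say whether replicate numbers pair libraries across breeds. Correlations of replicate differences were 0 for Kedah-Kelantan with Holstein Friesian, 0.09 for Brangus with Holstein Friesian and 0.01 for Kedah-Kelantan with Brangus. A pairing smaller than the other differences between replicates could not be seen this way. With the replicate block, 0 NDUF genes and 0 of all genes passed in each comparison, the medians were -0.23, 0.26 and -0.52, and 10 rather than 17 NDUF genes had an unadjusted p under 0.05 in Kedah-Kelantan against Brangus.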
